A study of Rattus norvegicus with 18 samples.

Results

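The comparison described here asks whether the late response of rat hippocampal neurons to depolarization differs when the transcription factor MEF2 is knocked down. It is a double difference, the change from 0 h to 6 h of KCl in neurons with MEF2 shRNAs minus the same change in neurons with control shRNAs, and it is called the interaction below. It uses 12 of the 18 arrays of the study, 3 in each of 4 groups, chosen by the shRNA and the hours of KCl in their labels. The labels describe all samples as hippocampal neurons in dissociated culture, transduced with lentivirus on day 3 in vitro; markers of astrocytes were also read well above the floor on every array, and their sums are given with those of other cell types. On day 10 all cultures received the NMDA receptor blocker AP5 and the sodium channel blocker TTX for 1 h. The control arm at 0 h and at 6 h carried control shRNAs, and the RNAi arm at 0 h and at 6 h carried shRNAs specific for MEF2. The 6 h groups were then exposed to 55 mM extracellular KCl, and the 0 h groups were not. The labels name neither the shRNA sequences nor the family members they target, and give no animal age. Arrays are labelled as biological replicates 1 to 3, with no word on whether these are separate cultures, so p-values measure only the spread between these samples, which may be technical. The arrays read bulk RNA, in which fewer cells of a type and less RNA per cell cannot be told apart.

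MEF2 proteins are transcription factors of the MADS-box class that bind an AT-rich site. In resting neurons they can hold genes silent together with class IIa histone deacetylases, and calcium entry through voltage-gated channels turns them into activators through calcineurin and kinases. In hippocampal neurons they are known for limiting the number of excitatory synapses and for regulating activity-induced genes such as Bdnf, Arc and Nr4a1. Extracellular KCl depolarizes the membrane, opens calcium channels, and starts first a wave of immediate early genes and later a wave of effector genes.

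Each value below is the intensity of 1 probe set on 1 array, on the linear scale of the deposited table, and array values are listed in the order of replicates 1, 2 and 3. Array medians lay between 240 and 248, arrays of 1 group correlated at 0.987 to 0.996 over the genes tested, and no pair of arrays held identical values. Mef2a, a MEF2 family member, read 2001, 1799.6 and 1739 at 0 h and 1534, 1807 and 1928 at 6 h in the control arm. In the RNAi arm it read 595, 620.1 and 596 at 0 h and 451, 561 and 443 at 6 h. By this probe set every RNAi array lay below every control array. Its log2 difference, RNAi minus control, was -1.61 at 0 h and -1.86 at 6 h. Dimmer Mef2a probe sets gave -1.47 and -1.80, -0.76 and -1.3, and -0.56 and -0.60, so the size of the Mef2a difference depends on the probe set. Mef2d, a second member, read 380.2, 423 and 387 and then 528, 591 and 521 in the control arm, and 264, 266 and 298 and then 337, 387 and 383 in the RNAi arm. By this probe set its RNAi arrays lay below the control arrays at each time, and the RNAi arrays at 6 h overlapped the control arrays at 0 h. Its log2 difference, RNAi minus control, was -0.52 at 0 h and -0.57 at 6 h. Another Mef2d probe set of similar brightness gave -0.14 and -0.082, so the size of the Mef2d difference depends on the probe set. Mef2c differed by -0.18 at 0 h, which was not called, and by -0.30 at 6 h, which was. The double difference itself was -0.25 for Mef2a (SE 0.13; limma adjusted p = 0.413), -0.043 for Mef2d (adjusted p = 0.874) and -0.13 for Mef2c (adjusted p = 0.601) on the log2 scale, and none of them was called.

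Of 10933 genes tested, 126 (1.15%) had an interaction that passed limma's moderated test with the replicate number as a block, at a Benjamini-Hochberg adjusted p under 0.05. The interaction was negative for 86 genes (0.787%), meaning that the RNAi arm rose less or fell more, and positive for 40 (0.366%). At an unadjusted p under 0.05 there were 1556 genes. Called interactions ran from 0.32 to 1.43 in size on the log2 scale with a median of 0.52, and 7 genes reached 1. Over all genes tested the median interaction was -0.00022, the median size 0.099 and the median SE 0.10, and the 95% interval had a median half-width of 0.22. In all 126 called genes the double difference had the same sign in each of the 3 replicate numbers, as it did in 35.9% of all genes tested. The paired changes of the arms did not overlap in any of them, against 17.3% of all genes without overlap. Both properties follow in part from choosing genes by their p.

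The replicate numbers carried much of the precision. Without the block, 13 genes were called (0.119%), 3 positive and 10 negative, and all 13 were among the 126. These were Trpc6, Otud1, Egr4, Sh3rf1, Micu3, Smad7, Mia2, Mxi1, Dot1l and Lin7a with a negative interaction, and Sdhaf3, Pdlim1 and Arrdc4 with a positive one. A fit on the 12 arrays alone, with the block, called 34 genes. Leaving out 1 array gave 60 calls when it was control 6 h replicate 3, RNAi 6 h replicate 1 or RNAi 6 h replicate 3. The count was 66 for control 0 h replicate 3 left out, 69 for control 6 h replicate 2, 72 for RNAi 0 h replicate 3 and 76 for control 0 h replicate 2, and it rose to 209 for control 0 h replicate 1. Of the 126 genes, 40 stayed called without each of the 12 arrays. For 65 of them there were 7 or more arrays whose removal, 1 at a time, ended the call. The accounts below say so for each described gene that lost its call, and many that lost it are not described. Quantile normalization of the arrays called 157 genes, of which 47.8% were positive, against 31.7% in the values as deposited.

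Most of the called genes were ones whose KCl response was smaller or reversed in the RNAi arm. In 61 of the 126 the control arm rose and the interaction was negative, and in 30 the control arm fell and the interaction was positive. For the 61, the median log2 change was 0.77 in the control arm and 0.26 in the RNAi arm, and the median RNAi change was 30.9% of the control change. Of these, 34 still rose in the RNAi arm, 20 were not called there, and 7 fell. For the 30, the median change was -0.72 in the control arm and -0.13 in the RNAi arm; 14 still fell, 12 were not called and 4 rose. A further 15 genes were not called in the control arm and fell in the RNAi arm, 10 fell in both arms and more so with RNAi, 6 rose in the RNAi arm alone by the calls, and 4 rose in both arms and more so with RNAi. For background, the control arm's own response was called for 50.3% of genes (20% higher and 30.3% lower) and the RNAi arm's for 49.7% (18.9% higher and 30.8% lower), and these responses share their arrays with the interaction.

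**Figure D1:**
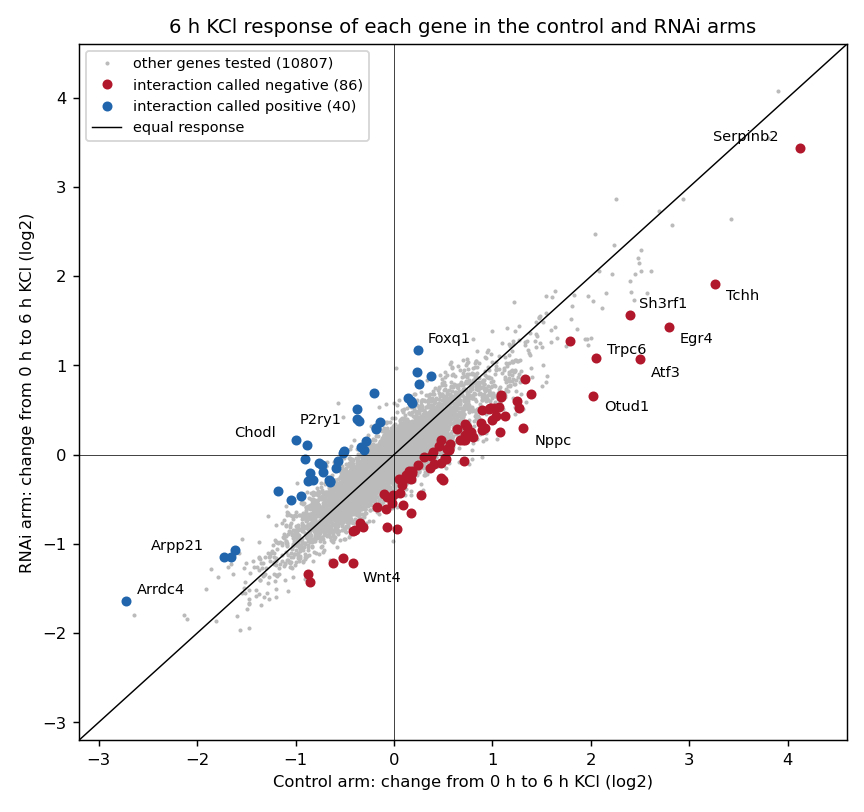
Each point is a gene, placed by its log2 change from 0 h to 6 h of KCl in the control arm (horizontal) and in the RNAi arm (vertical), with the 86 negative interactions in red, the 40 positive ones in blue and the line of equal response in black. Among the called genes, Atf3, Egr4, Otud1 and Tchh, which rose strongly in the control arm, lie below the line, and Arrdc4, which fell most among the called genes, lies above it.

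The difference between arms before KCl divides these genes further. Among the 86 negative genes, 46 were lower in the RNAi arm at 6 h and not called at 0 h, and 9 were lower at both times. Another 16 were higher in the RNAi arm at 0 h and not called at 6 h, 8 were higher at 0 h and lower at 6 h, and 7 were higher at both times. Among the 40 positive genes, 13 were higher at 6 h only and 13 lower at 0 h only, 6 went from lower to higher, 6 were lower at both times and 2 were higher at both. A negative interaction therefore stood for a shortfall at 6 h in most of the 86 and for an excess at 0 h in others. Over all genes tested, RNAi and control differed for 26% at 0 h (15.9% higher and 10.2% lower with RNAi) and for 28.2% at 6 h (15.3% higher and 12.9% lower).

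**Figure D2:**
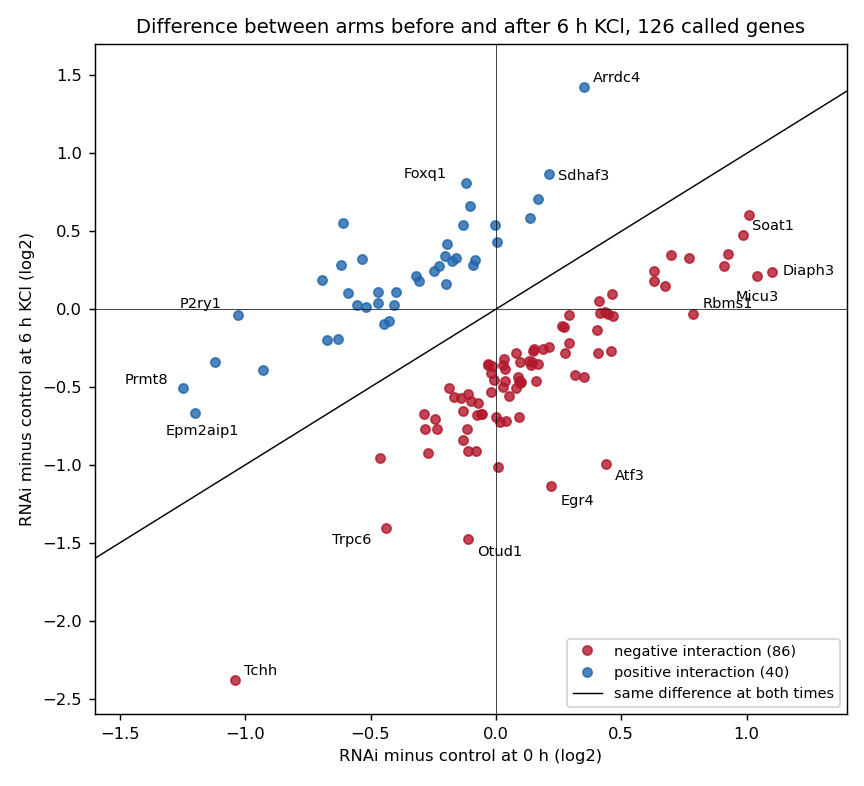
The log2 difference RNAi minus control at 0 h (horizontal) is set against that at 6 h of KCl (vertical) for the 126 called genes, with the line of equal difference in black. Otud1 and Egr4 lie near 0 before KCl and far below it after, whereas Diaph3, Micu3 and Rbms1 are high before KCl and close to control after it.

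The negative interactions of largest size among transcriptional regulators belonged to Atf3 and Egr4. Atf3, a bZIP transcription factor induced by stress and by neuronal activity, read 405, 374 and 366 at 0 h and 1859, 2263 and 2397 at 6 h in the control arm. In the RNAi arm it read 453, 409.6 and 740.0 and then 969, 1101 and 1203. The RNAi arrays began above the control arrays and ended below all of them. The rise was 5.67-fold in the control arm and 2.11-fold in the RNAi arm, an interaction of -1.43 (SE 0.20, n = 3 arrays per group; limma adjusted p = 0.00614). Egr4, a zinc-finger factor of the Egr family, read 234, 160.0 and 148 and then 1296, 1171 and 1214 in the control arm, and 242, 154 and 235 and then 599, 556 and 519 in the RNAi arm. At 0 h the arms overlapped, and at 6 h every RNAi array read below every control array. Its rise was 6.93-fold in the control arm and 2.70-fold in the RNAi arm (interaction -1.36, SE 0.23; adjusted p = 0.00958).

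Further regulators of transcription and chromatin also rose less. Zfp536, a zinc-finger repressor of neuronal differentiation, read 485, 358 and 368 and then 1112, 884 and 916 in the control arm, and 447, 435 and 356 and then 639, 612 and 519 in the RNAi arm. The arms overlapped at 0 h and not at 6 h, with an interaction of -0.76 (SE 0.11; adjusted p = 0.00614). Another Zfp536 probe set gave an interaction of 0.091 and a control change of -0.012, so the call of Zfp536 depends on the probe set. Pwwp3b read 149.8, 141 and 128 and then 409, 356 and 335 in the control arm against 125, 127 and 130.0 and then 232, 199 and 184 in the RNAi arm (interaction -0.71, SE 0.098; adjusted p = 0.00614). Its RNAi rise was 49.1% of the control rise on the log2 scale. Dot1l, a histone methyltransferase, read 516, 470.2 and 453 and then 1020.0, 1015 and 1099 in the control arm, and 655, 653 and 599 and then 766, 927 and 889.6 in the RNAi arm. Here the RNAi arrays were the higher ones at 0 h and the lower ones at 6 h, and the interaction was -0.69 (SE 0.10; adjusted p = 0.00614). Mxi1, a Max-binding repressor that opposes Myc, had an interaction of -0.49 (adjusted p = 0.00873). Atf3, Egr4, Zfp536, Pwwp3b, Dot1l and Mxi1 stayed called without each of the 12 arrays. Dot1l and Mxi1 lie outside the rule for named genes and were chosen after their values were seen. The same holds for Mia2 above and for Smad7, Prkca, Serpinb2, Soat1, Vldlr, Slc25a25, Mylip, Gps2, Ythdc1 and Rnf146 below. It also holds for Imp3, Tefm, Mas1, Thrb, Cul5, Kcnk12, Slc40a1, Srf and Cdh11 below.

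Otud1 and Sh3rf1, which act in ubiquitin signalling, and the kinase gene Prkca also rose less with RNAi. Otud1, a deubiquitinase, read 765, 708 and 658 and then 2748, 2936 and 2965 in the control arm, and 587, 628 and 766 and then 935, 943 and 1257 in the RNAi arm. The arms overlapped at 0 h, at 6 h every control array stood above every RNAi array, and the RNAi level at 6 h was 35.9% of control. Its rise was 4.06-fold in the control arm and 1.58-fold in the RNAi arm (interaction -1.36, SE 0.17; adjusted p = 0.00365). Sh3rf1, a ubiquitin ligase and scaffold of JNK signalling, read 199, 191 and 171 and then 1011, 945 and 987 in the control arm. It read 183, 179 and 167 and then 624, 490.0 and 462 in the RNAi arm, which overlapped the control arm at 0 h and lay wholly below it at 6 h. The interaction was -0.83 (SE 0.095; adjusted p = 0.00134). Prkca, protein kinase C alpha, rose by 0.99 in the control arm and 0.39 in the RNAi arm on the log2 scale (interaction -0.60, SE 0.095; adjusted p = 0.00762).

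Called membrane proteins included Trpc6, a receptor-operated cation channel that passes calcium. It read 111, 99.2 and 102 and then 419, 435 and 439 in the control arm, and 86.3, 71.5 and 65.4 and then 163, 181 and 147 in the RNAi arm. The RNAi arrays were lower at both times, and 2 of them at 0 h lay under the floor of 72.6 to which low values were raised, so the RNAi rise is understated. The control arm rose 4.14-fold and the RNAi arm 2.12-fold (interaction -0.97, SE 0.11; adjusted p = 0.00134). Slc40a1, the iron exporter ferroportin, rose by 1.07 in the control arm and 0.53 in the RNAi arm (interaction -0.53; adjusted p = 0.0282). Kcnk12, a tandem-pore potassium channel subunit, rose by 0.77 and 0.24 (interaction -0.53; adjusted p = 0.0155). Slc25a25, a mitochondrial carrier of ATP-Mg and phosphate, rose by 0.97 and 0.52 (interaction -0.45; adjusted p = 0.00940). Slc40a1 lost its call when any of 5 of the 12 arrays was left out (adjusted p up to 0.0875, without control 6 h replicate 3), as Kcnk12 did for 1 (up to 0.0516, without RNAi 6 h replicate 1).

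Nppc, Tchh and Serpinb2 had negative interactions as well. Nppc, the precursor of C-type natriuretic peptide, read 358, 405 and 267 and then 815, 781 and 929.9 in the control arm, and 296, 393 and 337 and then 370.0, 437 and 447 in the RNAi arm. The arms overlapped at 0 h, and at 6 h the lowest control array stood above the highest RNAi array. Nppc rose 2.48-fold in the control arm, and its RNAi change of 0.29 on the log2 scale was not called (interaction -1.02, SE 0.20; adjusted p = 0.0240). Tchh, which encodes trichohyalin, a structural protein of the hair follicle, read 206, 199 and 94.8 and then 1368, 1727 and 1437 in the control arm, and 72.3, 74.5 and 82.6 and then 247, 427 and 228 in the RNAi arm. The RNAi arrays were lower at both times, 1 of them under the floor at 0 h (interaction -1.34, SE 0.30; adjusted p = 0.0406). Serpinb2, a secreted and intracellular serpin, lay under the floor on all 6 arrays of 0 h, and at 6 h read 1571, 1012 and 1275 with control shRNAs and 917, 645 and 816 with RNAi. The RNAi arrays at 6 h were all lower, by -0.69 on the log2 scale. Since both 0 h groups were set to the floor, the rise was at least 17.4-fold in the control arm and at least 10.8-fold in the RNAi arm, and the interaction (adjusted p = 0.0414) equals the 6 h difference. Nppc lost its call without any of 4 arrays (adjusted p up to 0.0803, without control 6 h replicate 3), Tchh without any of 9 (up to 0.123, without control 6 h replicate 3) and Serpinb2 without any of 10 (up to 0.114, without RNAi 0 h replicate 2).

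At the synapse, 2 scaffold genes rose less with RNAi. Lin7a, a PDZ scaffold of synaptic membranes, read 85.3, 90.6 and 86.7 and then 198, 221 and 207 in the control arm, and 78.8, 78.7 and 85.0 and then 122, 111 and 135 in the RNAi arm. Its RNAi arrays were below the control arrays at both times, with a wider gap at 6 h (interaction -0.65, SE 0.092; adjusted p = 0.00614). Dlg2, a guanylate kinase scaffold of the postsynaptic density, rose by 0.56 in the control arm, while its RNAi change of 0.066 was not called (interaction -0.49; adjusted p = 0.0459, up to 0.137 without RNAi 6 h replicate 1, and lost without any of 10 arrays).

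Herpud1, Vldlr and Soat1 rose in both arms, and by less on the log2 scale with RNAi. Herpud1, which acts in the degradation of misfolded proteins of the endoplasmic reticulum, rose by 1.33 and 0.85 (interaction -0.48, SE 0.086; adjusted p = 0.0137). Vldlr, a receptor for lipoproteins and for reelin, rose by 1.09 and 0.67 (interaction -0.42; adjusted p = 0.0405). Soat1, which esterifies cholesterol, read 197, 180.0 and 191 and then 607, 606 and 748 in the control arm, and 354, 363 and 409 and then 846, 829 and 1054 in the RNAi arm. It was higher with RNAi at both times, and the interaction of -0.51 (adjusted p = 0.0169) turned to 70.2 on the linear intensity scale, where the RNAi arm gained more. Vldlr lost its call without any of 10 arrays (adjusted p up to 0.111, without RNAi 6 h replicate 1) and Soat1 without any of 2 (up to 0.0535, without control 6 h replicate 3).

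Promoter sequence was set beside the called genes. RefSeq gives windows of the 250 bases before the transcription start in assembly GRCr8, and 103 of the 126 called genes had 1 or more. They were searched on both strands for 5 motifs, the MEF2 site, the serum response element, the cAMP response element TGACGTCA, the AP-1 site TGANTCA and the E-box CACGTG, and no matches of different motifs overlapped. The MEF2 site was found in 0 of the 92 windows of 69 genes with a negative interaction and in 1 of the 41 windows of 34 genes with a positive one. It was found in 1.44% of the windows of all genes tested and in 2.96% of all windows of the table. For the cAMP response element the shares were 2.17% (negative), 4.88% (positive) and 2.92% (genes tested), for the AP-1 site 4.35%, 7.32% and 4.45%, for the serum response element 1.09%, 2.44% and 1.38%, and for the E-box 3.26%, 2.44% and 8.17%. Over all windows these 4 motifs had shares of 1.59%, 6.34%, 1.5% and 5.59%. A match is a description of letters and no site of binding. The windows below, 120 bases each, show matches in 4 of the genes that rose less, in gene orientation with the match in capitals: the AP-1 site of Tchh (chr2:181786950-181787069, plus strand) and of Serpinb2 (chr13:24055772-24055891, plus strand), the cAMP response element of Slc25a25 (chr3:36116680-36116799, minus strand), and the serum response element of Herpud1 (chr19:10614708-10614827, minus strand).
Tchh: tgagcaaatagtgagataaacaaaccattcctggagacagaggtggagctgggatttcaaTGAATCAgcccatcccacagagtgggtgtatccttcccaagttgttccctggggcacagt
Serpinb2: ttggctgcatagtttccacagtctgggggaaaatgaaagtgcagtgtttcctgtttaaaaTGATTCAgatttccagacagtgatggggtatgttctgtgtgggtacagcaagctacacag
Slc25a25: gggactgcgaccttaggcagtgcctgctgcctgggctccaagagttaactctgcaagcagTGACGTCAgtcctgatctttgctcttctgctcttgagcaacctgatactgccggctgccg
Herpud1: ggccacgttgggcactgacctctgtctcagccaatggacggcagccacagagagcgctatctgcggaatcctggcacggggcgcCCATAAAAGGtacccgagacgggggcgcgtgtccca

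**Figure D3:**
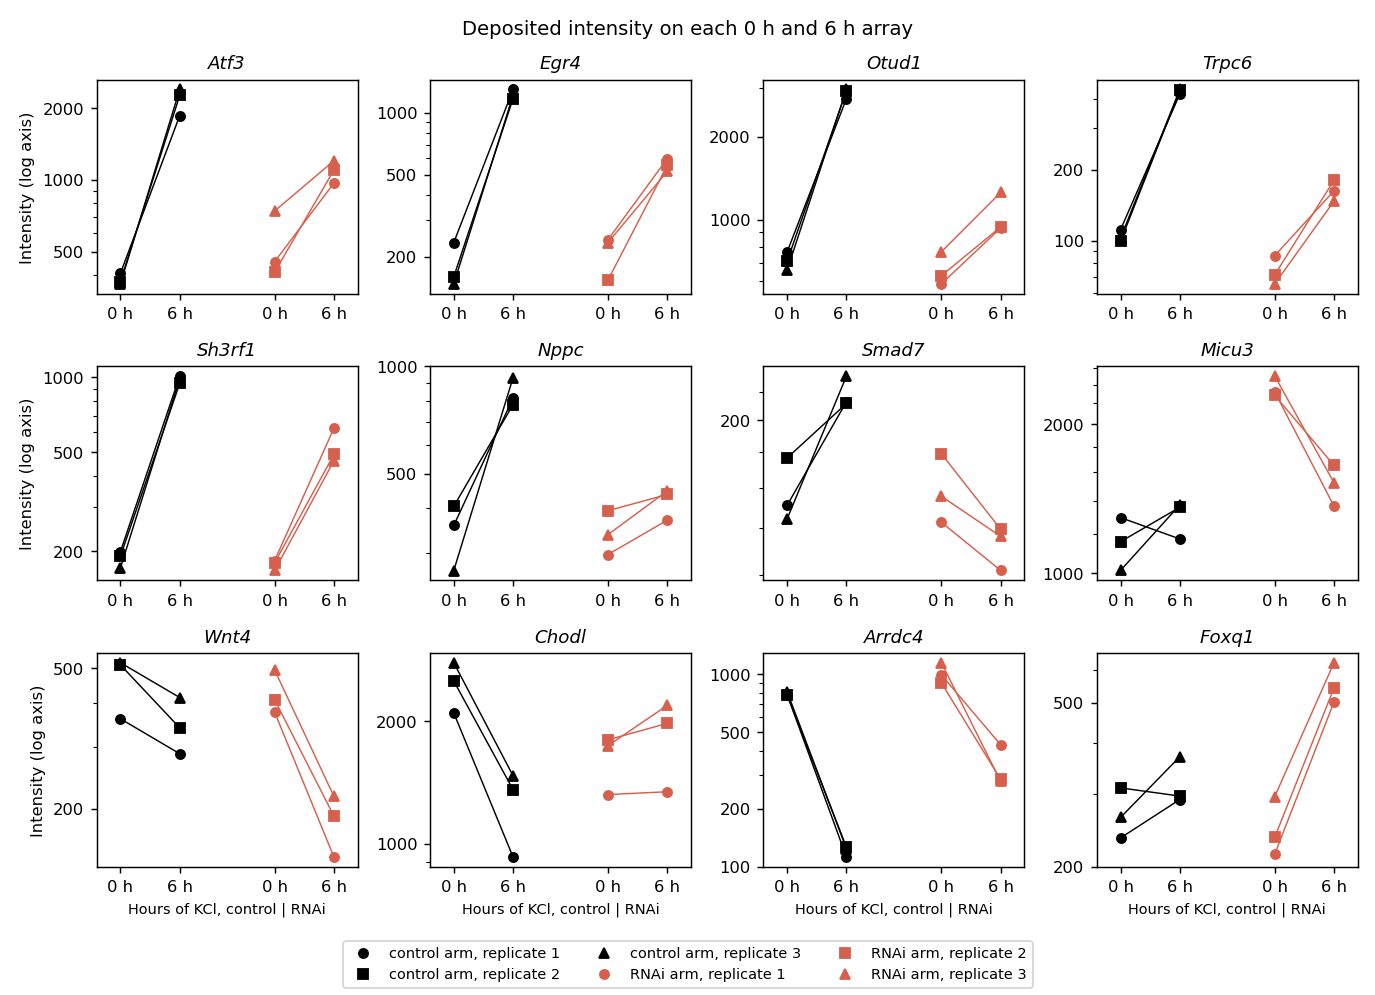
Deposited intensities (log axis) of 12 called genes on the 12 arrays of 0 h and 6 h, with control arrays in black, RNAi arrays in red, and a line joining the arrays of each replicate number. Atf3, Egr4, Otud1, Trpc6, Sh3rf1 and Nppc reach lower levels with RNAi at 6 h, Micu3 starts higher, Chodl falls in the control arm alone, and Foxq1 rises in the RNAi arm.

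In 7 genes the control arm rose and the RNAi arm fell, each by its own call. Lrrc75a read 228, 225 and 189 and then 266, 336 and 305 in the control arm, and 223, 259 and 203 and then 214, 189 and 159 in the RNAi arm. Smad7, the inhibitory Smad of transforming growth factor beta signalling, read 151, 177 and 144 and then 213, 212 and 232 in the control arm, and 143, 179 and 156 and then 122, 139 and 136 in the RNAi arm. In both genes the arms overlapped at 0 h and were apart at 6 h, with interactions of -0.79 (SE 0.14; adjusted p = 0.0126) and -0.74 (SE 0.11; adjusted p = 0.00614). Mylip, a ubiquitin ligase that targets receptors of the low density lipoprotein receptor family, changed by 0.27 in the control arm and -0.45 in the RNAi arm (interaction -0.73; adjusted p = 0.0213). The other 4 were Gps2, a subunit of nuclear corepressor complexes, Ythdc1, a nuclear reader of methylated adenosine in RNA, Rnf146, a ubiquitin ligase, and Elavl3, a neuronal RNA-binding protein. Their interactions were -0.44, -0.39, -0.36 and -0.33. Lrrc75a and Smad7 kept their call without each array, and the other 5 lost theirs without any of 5 (Mylip), 8 (Gps2), 7 (Ythdc1), 11 (Rnf146) or 10 (Elavl3) arrays, with adjusted p up to 0.0706, 0.0875, 0.0718, 0.105 and 0.111, the highest without control 6 h replicate 3, control 6 h replicate 3, RNAi 6 h replicate 3, RNAi 6 h replicate 1 and RNAi 6 h replicate 1.

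Rises that were called in the control arm and not in the RNAi arm included Rbms1 and Ccdc88c. Rbms1, which binds single-stranded nucleic acid, read 113, 106 and 98.1 and then 193, 205 and 279 in the control arm, and 207, 151 and 193 and then 215, 179.9 and 268 in the RNAi arm. Its RNAi arrays were already higher at 0 h, by 0.79 on the log2 scale, and overlapped the control arrays at 6 h (interaction -0.82; adjusted p = 0.0405, lost without any of 7 arrays and up to 0.117 without control 6 h replicate 3). Ccdc88c, a partner of Dishevelled in Wnt signalling, rose by 0.71 in the control arm and differed by -0.074 in the RNAi arm (interaction -0.79, SE 0.14; adjusted p = 0.0140).

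Among the 15 genes that fell in the RNAi arm and were not called in the control arm were Micu3 and Mcu, of mitochondrial calcium uptake. Micu3, a regulator of the mitochondrial calcium uniporter, read 1294, 1156 and 1012 and then 1171, 1358 and 1372 in the control arm, and 2320.4, 2283 and 2499 and then 1364, 1649 and 1520.3 in the RNAi arm. Every RNAi array at 0 h was higher than every control array, and at 6 h the lowest RNAi array lay within the control range. The interaction was -0.83 (SE 0.14; adjusted p = 0.00958). Mcu, the pore subunit of the uniporter, read 652, 757 and 751 and then 730.0, 773 and 771 in the control arm, and 721, 808 and 869.7 and then 625, 604 and 656 in the RNAi arm. Here the arms overlapped at 0 h and the RNAi arrays were lower at 6 h (interaction -0.42, SE 0.081; adjusted p = 0.0238, lost without any of 6 arrays and up to 0.0638 without RNAi 0 h replicate 3).

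Diaph3, a formin that nucleates actin filaments, read 205, 178 and 165 and then 209, 187 and 163 in the control arm, and 325, 467 and 391 and then 241, 205 and 213 in the RNAi arm. The RNAi excess at 0 h, 1.10 on the log2 scale, shrank to 0.24 at 6 h (interaction -0.86, SE 0.16; adjusted p = 0.0155). Hs3st2, a heparan sulfate sulfotransferase, read 542, 776 and 687 and then 522, 663 and 727 in the control arm, and 803, 792 and 877 and then 421, 475 and 519 in the RNAi arm. It was higher with RNAi before KCl and lower after, with no overlap between the arms at either time (interaction -0.74, SE 0.13; adjusted p = 0.0112). Cavin3, a coat protein of caveolae, had a log2 change of -0.45 in the RNAi arm, and one of -0.0059 in the control arm that was not called (interaction -0.44; adjusted p = 0.0121). Cul5, a scaffold of ubiquitin ligases, was higher with RNAi by 1.01 at 0 h and 0.60 at 6 h (interaction -0.41; adjusted p = 0.0498, lost without any of 10 arrays and up to 0.129 without RNAi 6 h replicate 1).

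In 10 genes both arms fell and the RNAi arm fell further. Wnt4, a secreted Wnt ligand, read 360.1, 512 and 519 and then 287, 339 and 414 in the control arm, and 376, 408 and 495 and then 146, 191 and 217 in the RNAi arm. The arms overlapped at 0 h, and at 6 h every RNAi array was below every control array (interaction -0.80, SE 0.12; adjusted p = 0.00723). Zfp697 read 985, 1052 and 846 and then 687, 699 and 623 in the control arm, and 1719, 1917 and 1772 and then 854, 789 and 787 in the RNAi arm. It was higher with RNAi at both times, by less at 6 h (interaction -0.64, SE 0.093; adjusted p = 0.00614). Lyplal1, a lysophospholipase-like hydrolase, fell, with log2 changes of -0.85 and -1.42 in the control and RNAi arms (interaction -0.57; adjusted p = 0.00762). Sanbr and Tmem150c had interactions of -0.46 (adjusted p = 0.0181) and -0.44 (adjusted p = 0.0155). Sanbr lost its call without any of 3 arrays (up to 0.0591 without control 6 h replicate 3) and Tmem150c without RNAi 6 h replicate 3 (0.0515).

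The positive interactions were led by genes that fell in the control arm. Chodl, which encodes the membrane lectin chondrolectin, read 2099, 2515 and 2789 and then 927, 1358 and 1469 in the control arm, and 1321, 1802 and 1743 and then 1343, 1978 and 2190.2 in the RNAi arm. Control arrays were the higher ones at 0 h, and the RNAi change of 0.16 was not called (interaction 1.16, SE 0.17; adjusted p = 0.00614). P2ry1, a receptor for ADP, read 167, 268 and 232 and then 100.1, 135 and 121 in the control arm, and 81.8, 112 and 134 and then 99.8, 118 and 129.6 in the RNAi arm. Its RNAi arrays were below the control arrays at 0 h and overlapped them at 6 h (interaction 0.99, SE 0.17, limma adjusted p = 0.0132). Among the arrays of 0 h and 6 h, P2ry1 exceeded the 40th percentile of its array (154 to 164) only in the control arm at 0 h. Arrdc4, an arrestin-domain protein that limits glucose uptake, read 785, 782 and 812 and then 112, 126 and 124 in the control arm, and 995, 903 and 1151 and then 429.9, 284 and 277 in the RNAi arm. Both arms fell, and the RNAi arrays were higher at both times (interaction 1.08, SE 0.17; adjusted p = 0.00812). On the linear scale the Arrdc4 double difference was -13.2, near 0 and of the other sign. Chodl, P2ry1 and Arrdc4 kept their call without each array.

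Pdlim1, a PDZ and LIM domain protein of the actin cytoskeleton, went in opposite directions in the arms. It read 932, 1040.5 and 821 and then 679.9, 755 and 717 in the control arm, and 508, 612 and 602 and then 793, 740.2 and 929 in the RNAi arm (interaction 0.88, SE 0.14; adjusted p = 0.00762). The arms were apart at 0 h and overlapped at 6 h. Prmt8, an arginine methyltransferase enriched in brain, read 4053, 4109 and 3568 and then 2713, 3134 and 3310.4 in the control arm, and 1706, 1538 and 1693 and then 1757, 2303 and 2426 in the RNAi arm. It fell in the control arm, rose in the RNAi arm and was lower with RNAi throughout (interaction 0.74; adjusted p = 0.0259). Tspan15, a tetraspanin, and Imp3, which acts in ribosomal RNA processing, were the other genes that fell in the control arm and rose in the RNAi arm, with interactions of 0.78 (adjusted p = 0.0278) and 0.47 (adjusted p = 0.0181). Prmt8 lost its call without any of 7 arrays (up to 0.0721 without RNAi 6 h replicate 3), Tspan15 without any of 6 (up to 0.0875 without control 6 h replicate 3) and Imp3 without any of 2 (up to 0.0555 without control 6 h replicate 2).

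Neurod6, Sdhaf3, Lrfn2, St6galnac5 and Sertm1 fell in the control arm and had positive interactions. Neurod6, a basic helix-loop-helix factor of pyramidal neurons, read 8255, 9489 and 8908 and then 5139, 5823 and 5223 in the control arm, and 6547, 7425 and 7397 and then 5822, 6234 and 6662 in the RNAi arm. Control arrays were the higher ones at 0 h, and at 6 h the arms overlapped (interaction 0.53, SE 0.081; adjusted p = 0.00726). Sdhaf3, an assembly factor of succinate dehydrogenase, read 1298, 1426 and 1267 and then 713, 732 and 755 in the control arm, and 1406, 1713 and 1511 and then 1334, 1277 and 1400.2 in the RNAi arm. Its RNAi arrays at 6 h stood well above the control arrays (interaction 0.65, SE 0.095; adjusted p = 0.00614). Lrfn2, a synaptic adhesion molecule, had a log2 change of -0.77 in the control arm, and one of -0.096 in the RNAi arm that was not called (interaction 0.67; adjusted p = 0.00823). St6galnac5, a sialyltransferase, had -0.73 and -0.11, the latter not called (interaction 0.61; adjusted p = 0.00982). Sertm1 changed by -1.18 and -0.41 (interaction 0.77; adjusted p = 0.0122). Each of the 5 genes of this paragraph kept its call without each array.

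Epm2aip1, named for its binding to the glycogen phosphatase laforin, was lower with RNAi at both times, by -1.20 at 0 h and -0.67 at 6 h (interaction 0.53, SE 0.084; adjusted p = 0.00762). Serinc2, a serine incorporator family member, had a log2 change of -0.90 in the control arm, and one of -0.047 in the RNAi arm that was not called (interaction 0.85; adjusted p = 0.0181, lost without any of 3 arrays and up to 0.0547 without RNAi 6 h replicate 1). Arpp21, a phosphoprotein regulated by cAMP, read 1985, 2465 and 2234 and then 636, 723 and 651 in the control arm, and 1246, 1713 and 1615 and then 513, 803 and 772 in the RNAi arm. By this probe set both arms fell, and the arms were apart at 0 h and overlapped at 6 h (interaction 0.58, SE 0.12, limma adjusted p = 0.0311). Arpp21 lost its call without any of 9 arrays (up to 0.100 without control 6 h replicate 3). Another of its probe sets rose, by 1.41 in the control arm and 0.85 in the RNAi arm, with an interaction of -0.56. By that probe set RNAi was the higher arm at 0 h, by 0.96. The directions of the KCl response, of the 0 h difference and of the interaction of Arpp21 therefore depend on the probe set. Tefm, a mitochondrial transcription elongation factor, fell, with log2 changes of -1.65 and -1.15 (interaction 0.50; adjusted p = 0.0171, lost, at 0.0514, without RNAi 6 h replicate 3). Mas1, a G protein-coupled receptor, fell, with log2 changes of -0.94 and -0.46 (interaction 0.49; adjusted p = 0.0434, lost without any of 10 arrays and up to 0.121 without control 6 h replicate 3).

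The promoter windows of 2 of these genes, of 120 bases, show the 1 match to the MEF2 site among the called genes, in Arpp21 (chr8:121031471-121031590, minus strand), and a match to the cAMP response element in Neurod6 (chr4:86180156-86180275, minus strand). Capitals again mark the match, and the sequences are RefSeq's for GRCr8 in gene orientation. Below them is the cAMP response element of Hs3st2 (chr1:185387340-185387459, plus strand), which had a negative interaction, so the same letters stood before genes of either direction.
Arpp21: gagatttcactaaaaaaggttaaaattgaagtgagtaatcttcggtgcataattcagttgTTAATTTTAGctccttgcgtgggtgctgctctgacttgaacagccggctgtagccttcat
Neurod6: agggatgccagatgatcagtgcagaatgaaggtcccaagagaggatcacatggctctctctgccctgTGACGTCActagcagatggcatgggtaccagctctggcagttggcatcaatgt
Hs3st2: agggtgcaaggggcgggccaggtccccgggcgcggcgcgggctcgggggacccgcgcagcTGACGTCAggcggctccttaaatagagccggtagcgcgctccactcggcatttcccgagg

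In 10 genes a positive interaction came from a rise that was larger in the RNAi arm or called there alone. Foxq1, a forkhead transcription factor, read 235, 311 and 263 and then 291, 297 and 370.0 in the control arm, and 215, 236 and 296 and then 503, 544 and 626 in the RNAi arm. The arms overlapped at 0 h, and at 6 h the RNAi arrays were all higher (interaction 0.93, SE 0.15; adjusted p = 0.00873). Rtn4rl1, a Nogo receptor family member, read 1311, 1816 and 1859 and then 1224, 1634 and 1435 in the control arm, and 797, 1145 and 1345 and then 1464, 1853 and 1915 in the RNAi arm. Its replicates differed within each group, and in each replicate number the RNAi array was the lower one at 0 h and the higher one at 6 h (interaction 0.90, SE 0.17; adjusted p = 0.0181). Iqsec3, an exchange factor for Arf proteins at inhibitory synapses, read 1724, 2069.8 and 1942 and then 2214, 2235 and 2353 in the control arm, and 828, 1100.5 and 1105 and then 1386, 2000.0 and 1869 in the RNAi arm. It rose in both arms and stayed lower with RNAi at both times (interaction 0.54; adjusted p = 0.0351).

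Gcnt2, a glycosyltransferase, rose by 0.93 in the RNAi arm and was not called in the control arm at 0.24 (interaction 0.69; adjusted p = 0.0298). Pde4d, a cAMP phosphodiesterase, rose by 0.17 and 0.61 in the control and RNAi arms (interaction 0.44; adjusted p = 0.0298). Thrb, the thyroid hormone receptor beta, rose by 0.63 in the RNAi arm, against a control change of 0.15 that was not called (interaction 0.49; adjusted p = 0.0459). The others were Brinp2 (0.40), Tbc1d22al (0.51), Pphln1 (0.51) and Pop5 (0.48). Foxq1 alone of these 10 kept its call without each array. The numbers of arrays whose removal ended a call were 2 for Rtn4rl1, 5 for Gcnt2, 6 for Brinp2, 7 for Pde4d, 8 for Tbc1d22al, 9 for Pphln1, 10 for Iqsec3, 10 for Pop5 and 10 for Thrb. Their adjusted p reached 0.0606, 0.0948, 0.0683, 0.0888, 0.0875, 0.0710, 0.0967, 0.128 and 0.125 in that order, without control 6 h replicate 3, RNAi 6 h replicate 1, control 0 h replicate 3, control 6 h replicate 3, control 6 h replicate 3, RNAi 6 h replicate 2, control 6 h replicate 2, control 6 h replicate 3 and RNAi 6 h replicate 1.

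**Figure D4:**
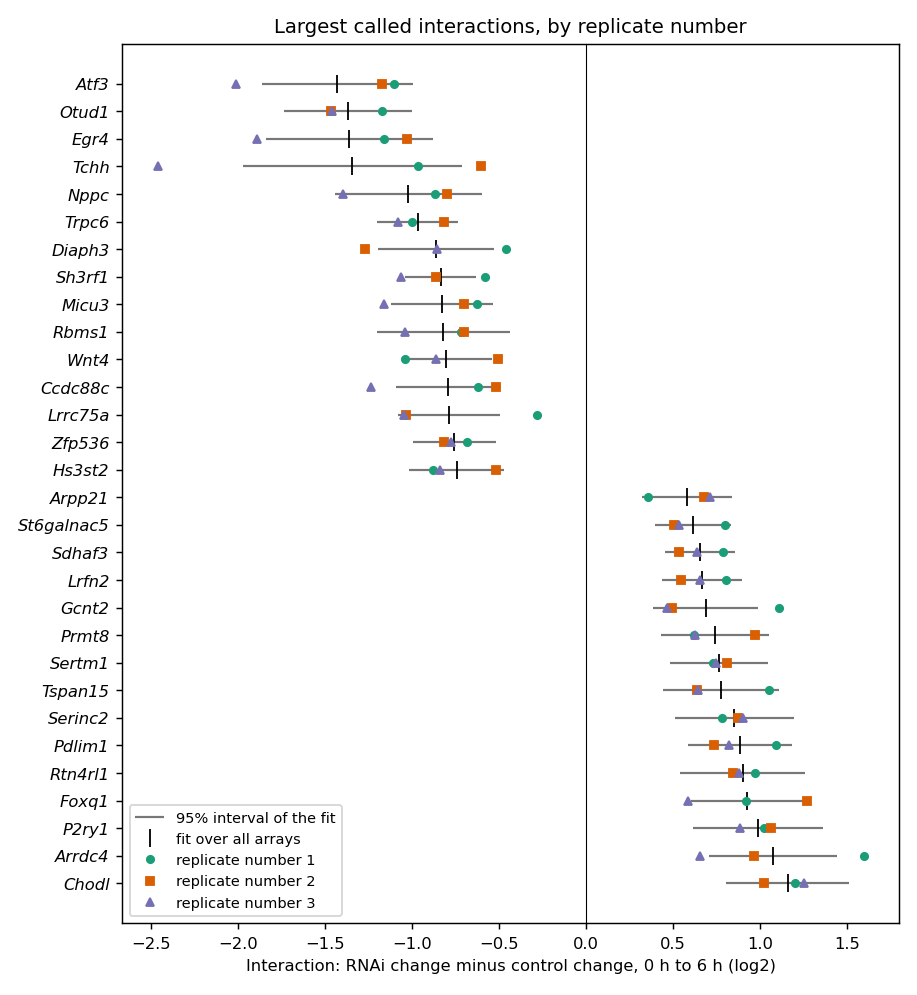
The interaction (log2, RNAi change minus control change) of the 15 largest negative and 15 largest positive called genes is plotted by replicate number as colored points, with the fit as a tick and its 95% interval as a bar. All 3 points of each gene lie on the side of the fit; Otud1, Trpc6 and Chodl have close points, and Tchh has 1 far from the other 2.

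Of 182 genes that rose at least 2-fold in the control arm, 20 (11.0%) had a called negative interaction, against 0.787% of all genes tested, and 0 a positive one, against 0.366%. Of 165 that fell at least 2-fold, 6 (3.64%) had a called positive interaction and 0 a negative one, against the same shares of all genes. Among the 30 largest control rises 25 interactions were negative, 7 of them called, with a median of -0.44. Among the 30 largest falls 11 were negative, 4 of the 30 were called, and the median was 0.28. The control arrays enter both the choice of these genes and, with the opposite sign, the interaction.

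Several well-known activity genes were not called by their brightest probe set. Bdnf, the neurotrophin, read 316, 285 and 265 and then 3086, 2856 and 3337 in the control arm, and 286, 289 and 347 and then 1726, 1806 and 2219 in the RNAi arm. At 6 h its RNAi arrays were all lower, and the interaction of -0.78 (95% interval -1.20 to -0.36) had an adjusted p of 0.0721, above the threshold. A dimmer Bdnf probe set read 394, 348 and 384 and then 854, 819.7 and 946 in the control arm, and 359.6, 325 and 364 and then 528, 483 and 607 in the RNAi arm. Its interaction of -0.60 (SE 0.12; adjusted p = 0.0278) was called in a limma fit over all 19567 probe sets tested, of which 173 (0.884%) were called, so the call of Bdnf depends on the probe set. Nr4a1, an orphan nuclear receptor, read 1069, 1059.7 and 889.9 and then 4645, 5489 and 6326 in the control arm, and 1268, 1054 and 881 and then 2439, 3168 and 5573 in the RNAi arm. RNAi 6 h replicate 3 lay within the control range, and the interval ran from -1.35 to -0.065 around -0.71 (adjusted p = 0.300). Egr1, a zinc-finger factor, had -0.75 (-1.31 to -0.19; adjusted p = 0.204).

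Arc, which acts in AMPA receptor trafficking, read 520.1, 398 and 421 and then 583, 576 and 570.4 in the control arm, and 314, 277 and 327 and then 282, 308 and 329 in the RNAi arm. It was lower with RNAi at both times, and its interaction was -0.38 (-0.67 to -0.081; adjusted p = 0.221). The AP-1 subunits Fos, Fosb and Jun had interactions of -0.24 (-1.17 to 0.69), 0.18 (-0.39 to 0.75) and -0.32 (-0.59 to -0.058), with adjusted p of 0.852, 0.816 and 0.246. Homer1, a postsynaptic scaffold with an activity-induced short form, had -0.14 by its brightest probe set (-0.34 to 0.069; adjusted p = 0.570), and 2 dimmer probe sets gave -0.90 and -0.61 in the fit over all probe sets, with the first of them called (adjusted p = 0.0182). Differences of the size called elsewhere lie inside most of these intervals of the brightest probe sets.

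The lists of pathway genes count each gene by its brightest probe set. Over all genes tested, 1.15% were called, the median interaction was -0.00022, 50.1% were negative, and at an unadjusted p under 0.05 there were 967 negative genes (8.84%) and 589 positive ones (5.39%). Of 26 immediate early transcription factors tested, 0 were positive and 2 negative (Atf3 and Egr4), the median interaction was -0.25, and 21 of the 26 rose in the control arm. At an unadjusted p under 0.05 the list had 8 negative members and 0 positive. Nr4a3, another nuclear receptor of the list, had -0.59 (adjusted p = 0.130). Of 17 reported MEF2 targets 0 were called (7 negative and 0 positive at an unadjusted p under 0.05), with a median of -0.23 and 12 negative values; the lowest was Kcna1, a voltage-gated potassium channel subunit, at -0.86 (adjusted p = 0.0509). All 7 members of the MEF2 family and its class IIa histone deacetylases had a negative value, with a median of -0.13, 0 called and 0 at an unadjusted p under 0.05. MAP kinase phosphatases and feedback inhibitors had 0 of 13 called (4 negative at an unadjusted p under 0.05), a median of -0.23 and 11 negative values. In the fit over all 19567 probe sets tested, 173 (0.884%) were called. Of 190 other probe sets of uncalled list members, looked at after the gene results were known, 6 were called. These belonged to Bdnf, Homer1, Nr4a3 (-1.32; adjusted p = 0.00805), Srf, the serum response factor (-0.43; adjusted p = 0.0278), Slit2, an axon guidance ligand (-1.16; adjusted p = 0.0113), and Cdh11, a cadherin (0.72; adjusted p = 0.0495). By these probe sets 3 of the reported MEF2 targets, Bdnf, Homer1 and Nr4a3, were negative and called. They are the called ones among several probe sets per gene, and the number tested for these targets alone is not given here. The remaining dimmer probe sets of Homer1 were not called (limma adjusted p of 0.432, 0.752 and 0.758).

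Lists of synaptic and channel genes lay closer to 0. Of 19 secreted factors and neuropeptides 1 was called (Nppc, negative), with a median of 0.031 and 5 positive and 2 negative members at an unadjusted p under 0.05, and Nrg1, a growth factor for ErbB receptors, had 0.37 (adjusted p = 0.0503). Of 32 glutamate receptors and scaffolds 1 was called (Dlg2, negative), with a median of 0.015. The 18 activity-regulated synaptic effectors had 0 called and a median of -0.013, and the 24 synaptic vesicle and release proteins 0 called and -0.012. Of 25 synaptic adhesion molecules 0 were called; Flrt2, an adhesion ligand of latrophilins, had 0.52 (adjusted p = 0.0506). Potassium channels (20), axon guidance genes (24), sodium and calcium channels (19), MEF2 partners and calcium signal transducers (21) and genes of the inhibitory synapse (13) each had 0 called, with medians of 0.0034, 0.068, -0.10, -0.057 and -0.11. In these 8 lists with 0 called, 0 to 3 members a list were positive and 2 to 5 negative at an unadjusted p under 0.05.

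Among the remaining lists, endoplasmic reticulum stress and heat shock had 1 of 18 called (Herpud1, negative) with a median of 0.061, and glycolysis and glucose uptake had 1 of 23 (Arrdc4, positive) with a median of 0.045. Txnip, the arrestin-domain relative of Arrdc4, had 0.84 (SE 0.24; adjusted p = 0.113). The circadian clock list had 0 of 17 called (2 positive and 1 negative at an unadjusted p under 0.05); its highest value was Bhlhe40, a transcriptional repressor, at 0.94 (adjusted p = 0.0707). Cholesterol biosynthesis (14), apoptosis and p53 response (11), interferon response (7) and housekeeping controls (10) had 0 called, with medians of 0.10, 0.015, 0.040 and 0.00050; 2 cholesterol genes were positive at an unadjusted p under 0.05, and 0 members of the other 3 lists reached it. Without the replicate block, Egr4 and Arrdc4 were the called members of any list.

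**Figure D5:**
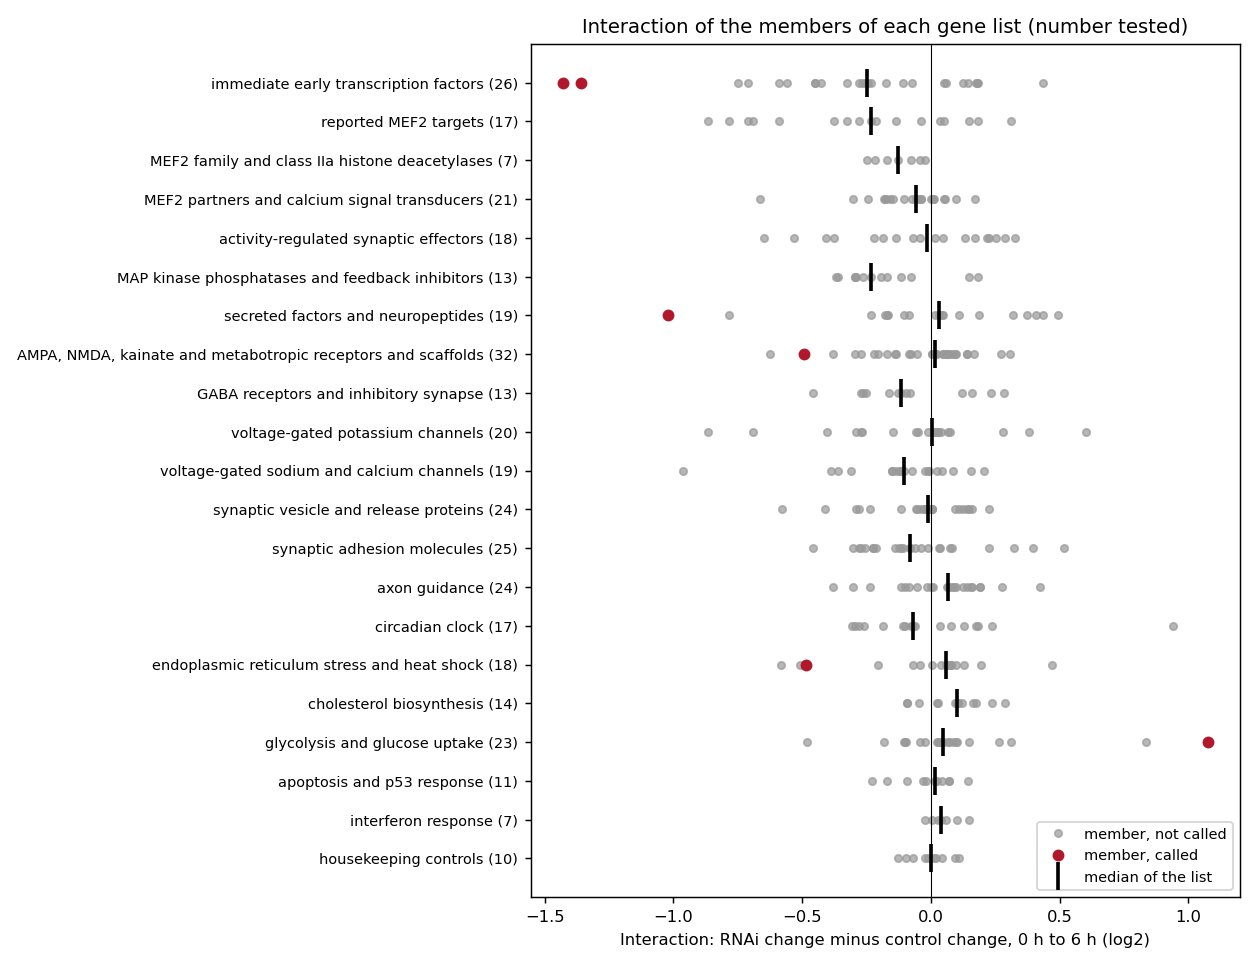
Each row is a gene list with the number of members tested, each point a member's interaction (log2, RNAi change minus control change), red where called, and each black tick the list's median. Immediate early transcription factors have 2 called members, at -1.43 and -1.36, and a median of -0.25, whereas the housekeeping controls lie between -0.13 and 0.11.

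At 1 h of KCl the same double difference was called for 0 of 10933 genes (0%) by limma with the block, and for 0 without it, with 730 genes at an unadjusted p under 0.05 and a lowest adjusted p of 0.743. The interactions at 1 h and at 6 h share the 0 h arrays of both arms, so their agreement in sign is not a separate result. Atf3 had -0.61 at 1 h and -1.43 at 6 h, Egr4 -0.79 and -1.36, and Otud1 -0.68 and -1.36. Nppc had 0.052 and -1.02, Trpc6 -0.20 and -0.97, and Lin7a -0.08 and -0.65. On the positive side Foxq1 had 0.63 and 0.93, Chodl -0.16 and 1.16, and P2ry1 -0.16 and 0.99. The median size over the 126 genes was 0.13 at 1 h and 0.52 at 6 h; the genes were chosen at 6 h.

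A total of 33 of the called genes had another probe set that could be tested, 45 in all. Of these 34 had the sign of the gene's call, 16 of them at an unadjusted p under 0.05, and 11 had the opposite sign, 1 of them at that level (Arpp21). Those of opposite sign also included probe sets of Zfp536 (0.091), Soat1 (0.045), Sanbr (0.12), Epm2aip1 (-0.033) and Pde4d (-0.023), described above by their brightest probe set. Markers of cell types were read on the same arrays. Glutamatergic neuron markers summed to 18675 to 21885 in control and 14421 to 17317 in RNAi arrays at 0 h, and to 15686 to 16058 and 13175 to 16090 at 6 h. Neurod6 is 1 of the 9 genes of this sum, and 1 of the 8 tested was called. GABAergic neuron markers summed to 6451 to 7678 in control and 4995 to 5648 in RNAi arrays at 0 h. At 6 h they summed to 8178 to 10997 and 6649 to 8302, and 0 of 7 were called. Mean intensity at 0 h was lower with RNAi for Sst (2217 in control, 986 with RNAi), Npy (1111, 614), Slc32a1 (797, 556), Gad2, Dlx1 and Dlx5. It was higher for Gad1 (1083, 1175), Calb2 (1339, 1460) and Pvalb (85, 91), so the sum does not stand for every marker. Astrocyte markers summed to 58041 to 73941 in control and 68333 to 79717 in RNAi arrays at 0 h, and to 59614 to 70547 and 67041 to 78119 at 6 h, with 0 of 11 called. Pan-neuronal markers had 1 of 16 called (Elavl3), and oligodendrocyte lineage, microglia and progenitor markers had 0 called. Endothelial and fibroblast markers summed to 6073 to 6496 in control and 5083 to 5565 in RNAi arrays at 0 h, which do not overlap. At 6 h they summed to 6582 to 7613 and 6235 to 7844, which do. The largest drops in mean intensity at 0 h were in Dcn (2285 in control, 1093 with RNAi) and Lum (357, 147). Fn1 (1503, 2041), Col1a1 (464, 510) and Col1a2 (156, 164) were higher with RNAi. Of the 9 tested 0 were called, with 2 positive and 1 negative at an unadjusted p under 0.05, from -0.77 for Cldn5, a tight junction protein, to 1.15 for Lum, a matrix proteoglycan. Mog and Mobp of oligodendrocytes, Ptprc of leukocytes and Pecam1 of endothelium lay at the floor on all 18 arrays. The part of these differences in cell markers in the interactions was not tested.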

How the data were processed

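Total RNA was labelled as biotin cRNA by Affymetrix procedures, per the labels' protocols. The authors deposited linear intensities, 1 for each probe set on each array; the sources used here do not give the steps of probe summary and array normalization. Intensities under the table's 20th percentile (72.6) were set to that value before taking log2, so changes of dim genes are understated. Of 31099 probe sets, 20832 carried 1 gene symbol, 436 several and 9831 were not listed with one. Each of 14218 genes was represented by its brightest such probe set, and 10933 genes above the 40th percentile of their own array on at least 3 arrays were tested. Another probe set of a gene may behave differently.

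limma 3.58.1 in R 4.3.3 (lmFit, eBayes) was fitted to all 18 arrays with 1 mean per group and the replicate number as a fixed block, leaving 10 residual degrees of freedom. Tests are two-sided, with p-values adjusted by Benjamini-Hochberg over all genes tested, called under 0.05, and SE are those of the fit. Same-numbered arrays deviated together from their group means: all 45 such pairs correlated, at 0.168 to 0.741 (median 0.491). The 90 pairs of different number had -0.625 to 0.425 (median -0.227), a range that overlaps the first. Deviations from a group mean cancel out within the group, so positive values for same-numbered pairs bring negative ones for the others. The negative median is therefore no separate support for the block. The pairing rests on this correlation and on the numbers in the labels. Precision is limited by there being 3 arrays in a group.

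Named genes are the 15 largest called interactions in each direction, the 5 smallest adjusted p in each class of control response and direction, 11 genes always included, and, of each list, up to 3 genes lowest in adjusted p. The members, lists and rules were chosen with earlier results of these data known. RefSeq promoter windows of assembly GRCr8 were matched by symbol. Alternatives were the block, the arrays fitted, the floor, the filter, the scaling, the choice of probe set, an intensity trend and each array left out; the double difference on the linear scale was added after seeing the data. A further gene is not reported here.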

Additional observations from a re-analysis of the deposited data

Results flagged for a closer look

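The KCl response at 6 h differed between the arms for 126 genes by the interaction test itself (limma with the replicate block, adjusted p under 0.05), against 13 without the block.

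In 11 of these genes the arms went in opposite directions, each by its own call, and the interaction tests that difference. The control arm rose and the RNAi arm fell for Lrrc75a (-0.79), Smad7 (-0.74), Mylip (-0.73), Gps2 (-0.44), Ythdc1 (-0.39), Rnf146 (-0.36) and Elavl3 (-0.33). The control arm fell and the RNAi arm rose for Imp3 (0.47), Prmt8 (0.74), Tspan15 (0.78) and Pdlim1 (0.88). Without the block, Smad7 and Pdlim1 of the 11 were called.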

How the results depend on the processing

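Without the replicate block 13 genes were called instead of 126, 3 positive and 10 negative. Of these, 9 had a smaller or reversed rise and 3 a smaller or reversed fall with RNAi. The smaller rises and smaller falls counted below likewise include reversed changes. Differences between arms were called without the block for 1624 genes at 0 h and 1881 at 6 h. With the 12 arrays alone the counts were 34 in all, 12 positive, 22 negative, 17 smaller rises and 9 smaller falls. With no filter on dim probe sets they were 78, 24, 54, 40 and 18. Quantile normalization gave 75 positive calls and 52 smaller falls, and centring each array on its median gave 54 negative calls and 37 smaller rises. Leaving out 1 array gave 60 to 209 calls, 16 to 48 positive, 35 to 161 negative, 25 to 121 smaller rises and 12 to 33 smaller falls. With the block as a random effect, 109 genes were called, 100 of them among the 126. The cause of these shifts was not tested.

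The sign held for all 126 genes in each alternative in which they were tested, except that the mean of all probe sets turned Arpp21 to -0.050 (adjusted p = 0.882) and the linear scale turned Soat1 to 70.2 and Arrdc4 to -13.2. Called in all 23 alternatives with a test were Dot1l, Micu3, Otud1, Pdlim1, Sdhaf3, Sh3rf1 and Trpc6. With 3 arrays per group and a median half-width of 0.22, smaller interactions could not be resolved.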
